A study of Homo sapiens with 6 samples.

Results

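The 10 genes described here encode the subunits of NF-κB and its inhibitors and modulators. They were taken by symbol from the table of read counts per gene, and all 10 were found among its 21462 genes. RELA, RELB, REL, NFKB1 and NFKB2 encode the 5 subunits, and NFKBIA, NFKBIE, NFKBIZ, BCL3 and TNFAIP3 encode inhibitors and modulators of the factor. Polyadenylated RNA was sequenced from A431 cells, a human epidermoid carcinoma line that serves as a keratinocyte model. The A431CT group was wild type, and the Dsg2KO group carried a CRISPR/Cas9 knockout of DSG2, which encodes the desmosomal cadherin Desmoglein-2. Each group had 3 libraries, and both groups shared the culture conditions, in DMEM with fetal bovine serum and no agent named for the RNA samples. Whether the Dsg2KO cells are a single clone is not given in the sources used here, so that clone and knockout cannot be told apart. The study asked how Dsg2 controls the expression of matrix genes, and it turned to NF-κB after its RNA sequencing. It reported nuclear RelA protein in more Dsg2KO than control A431 cells after serum stimulation, which RNA counts do not measure. The comparison here asks whether the mRNAs of the factor and its inhibitors differed between Dsg2KO and A431CT cells.

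NF-κB is a family of dimeric transcription factors that resides in the cytoplasm of resting cells, bound to IκB proteins. Signals from cytokine receptors activate the IKK kinase complex, IκB is phosphorylated and degraded, and the dimer moves to the nucleus. RELA, REL and RELB carry transactivation domains, while NFKB1 and NFKB2 encode precursors that are processed to p50 and p52. Several inhibitors are themselves transcribed by NF-κB and so close a negative feedback loop, and in keratinocytes the pathway is known for its role in inflammation of the skin. Because activity is set largely by protein degradation and nuclear entry, mRNA levels describe the supply of these components and not the activity of the factor.

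Promoter sequences of these genes are shown first, to describe where the letters of the κB consensus occur near their starts. Whether the loop runs through them was not tested. RefSeq promoter entries (GRCh38.p14), which hold 250 bases before and 50 bases from the transcript start on, matched 8 of the 10 genes, in 13 entries. The κB consensus decamer was searched on both strands, and a match was found in 9 of the 13 entries and in 7 of the 8 genes. It was found in 2075 of all 35116 promoter entries of that length (5.91%), and in 8.78% of the 10035 tested genes with an entry. RELA had no match in this window. A match is a description of letters and not a measured binding site. The promoter of NFKBIA, the inhibitor that was lower in Dsg2KO cells, is given from its 250 bases before the start, read on the minus strand at chr14:35404750-35404999, with the match in capitals, its first base 81 bases before the start.
NFKBIA: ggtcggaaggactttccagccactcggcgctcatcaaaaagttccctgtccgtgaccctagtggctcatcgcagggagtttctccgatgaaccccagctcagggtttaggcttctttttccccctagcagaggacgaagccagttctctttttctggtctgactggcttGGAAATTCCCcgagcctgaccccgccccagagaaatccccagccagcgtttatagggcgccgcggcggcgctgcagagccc

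For the other genes, windows of 30 bases on the plus strand show 1 match each in capitals, so that the decamers can be compared beside the levels given later. Counted on both strands, the matched entries of NFKB2 held 4 and 2 matches and those of NFKBIZ 1 and 2. REL and TNFAIP3 held 2 each. Lower-case bases can therefore belong to a further match, as at the end of the TNFAIP3 window. The BCL3 window (chr19:44748700-44748729) lies across the start, with its match just downstream of it. The NFKB1 window lies at chr4:102501300-102501329, the NFKB2 window at chr10:102394461-102394490 and the REL window at chr2:60881517-60881546. The NFKBIZ window lies at chr3:101827757-101827786 and the TNFAIP3 window at chr6:137867182-137867211.
BCL3: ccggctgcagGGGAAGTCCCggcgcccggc
NFKB1: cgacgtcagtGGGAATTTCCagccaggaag
NFKB2: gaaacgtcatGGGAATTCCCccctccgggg
REL: cgtcagccgcGGGAAATTCCcctcccgcca
NFKBIZ: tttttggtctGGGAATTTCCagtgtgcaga
TNFAIP3: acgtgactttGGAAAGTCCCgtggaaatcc
Each decamer in capitals matches the consensus on at least 1 strand. The genes with a match included the gene that rose, the gene that fell and 5 that did not pass the test.

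The libraries held between 12845719 and 16255692 counts, and a floor of 3 counts corresponded to 0.184 to 0.236 CPM (counts scaled to the library total with TMM factors), which covers counting error only. DSG2 was counted at 323 ± 6.08 CPM (SD, n = 3) in A431CT and 51.9 ± 2.88 CPM (SD, n = 3) in Dsg2KO cells. Of 6 keratinocyte markers, EGFR, KRT5, TP63, CDH1 and KRT17 were counted in all libraries, while KRT14 was below the floor in every library, with 0 to 2 counts. The summed level of these markers, most of it from EGFR, was 9385 to 10068 CPM in A431CT and 10200 to 10604 CPM in Dsg2KO cells. In edgeR's quasi-likelihood test KRT5 fell by 0.13 on the log2 scale (adjusted p = 0.0115). CDH1 and EGFR rose, by 0.28 (adjusted p = 4.22e-05) and 0.11 (adjusted p = 0.00579), and TP63 and KRT17 did not pass. Of 9 markers of other cell types, CD3E and MLANA were at 0 in every library, and the sum was 8.14 to 10.8 CPM in A431CT and 14.7 to 15.05 CPM in Dsg2KO cells. CDH5 and PECAM1, endothelial cadherin and adhesion genes, made up most of that sum, and both rose, with log2 fold changes of 0.76 (adjusted p = 0.0035) and 0.54 (adjusted p = 0.0466). Their part in the results was not tested.

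Few of the NF-κB mRNAs changed between the groups. Of the 10 genes, 1 rose (BCL3), 1 fell (NFKBIA) and 8 did not pass an adjusted p-value of 0.05 in edgeR's quasi-likelihood test over all 12857 genes tested. In that test 29.6% of all genes passed, 14.3% higher and 15.3% lower, so that 2 of 10 is not a larger share than the background. None of the 10 also reached an absolute log2 fold change of 0.5, the second threshold of the study, which 6.03% of genes passed, 2.99% higher and 3.03% lower. The libraries of the groups did not overlap for 2 of the 10, BCL3 and NFKBIA, against 42.6% of all genes tested. 4 of the 10 had an unadjusted p under 0.05, as did 39.5% of all genes tested, and with the added threshold both DESeq2 and the edgeR likelihood ratio test also called 0. The median log2 fold change of the 10 was 0.02 and the median of its size 0.14, against -0.0048 and 0.14 over all genes tested, and 5 values were positive and 5 negative. In bulk RNA, fewer cells that express a gene and less RNA per cell cannot be told apart.

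**Figure D1:**
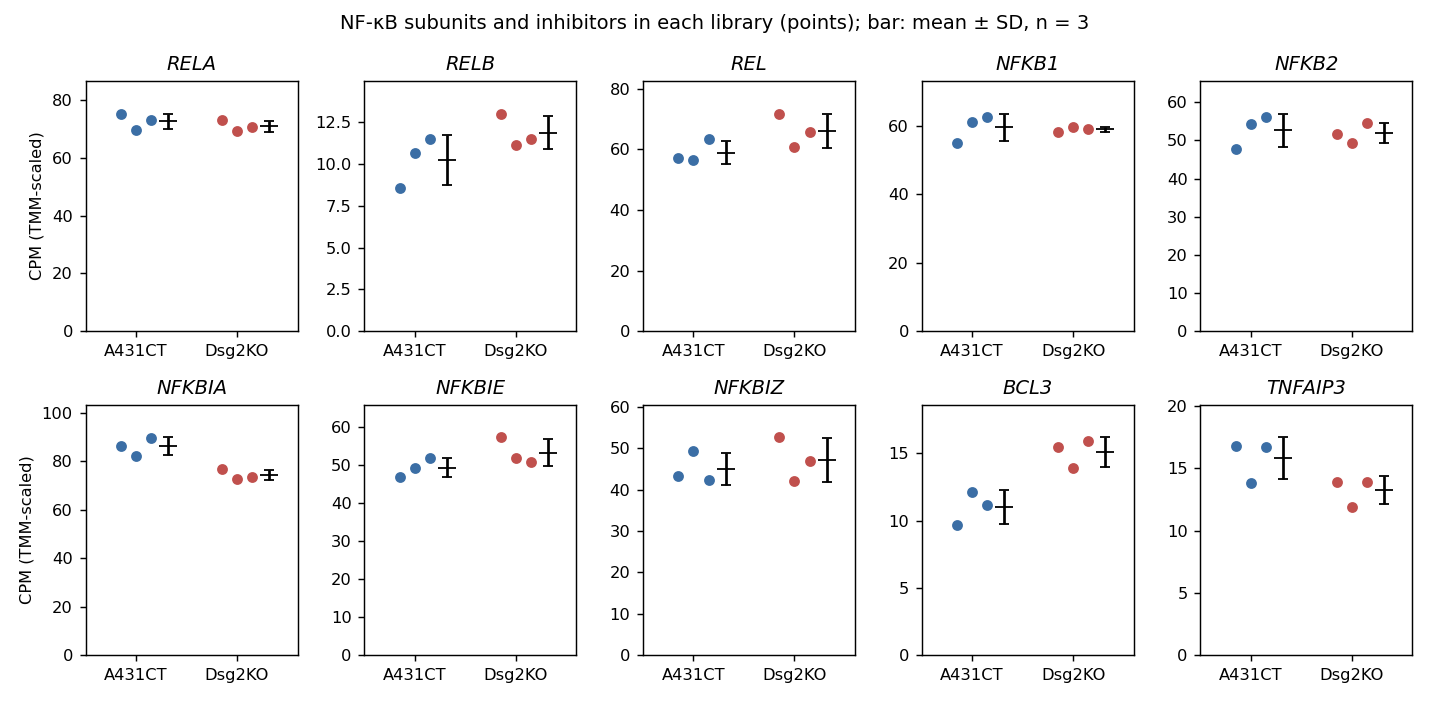
Level of each NF-κB subunit and inhibitor in CPM (vertical axes, each from 0) in the 3 A431CT and 3 Dsg2KO libraries. Points are libraries and bars are mean ± SD; the points of the groups are apart for NFKBIA and BCL3 and overlap for the other 8 genes.

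RELA, which encodes p65, the main transactivating subunit of the canonical pathway, showed nearly the same level in both groups. Its level was 75.1, 69.7 and 73.0 CPM in the A431CT libraries and 73.0, 69.3 and 70.7 CPM in the Dsg2KO libraries. The ranges of the groups overlap over most of their length. The log2 fold change was -0.03 (SE 0.05, 95% interval -0.14 to 0.07, adjusted p = 0.68), and its size exceeded that of only 12.9% of tested genes. The coefficient of variation between A431CT libraries was 3.72%, where counting error alone gives 3.25%, so this is among the more tightly measured of the 10 genes.

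REL, which encodes c-Rel, a subunit best known from lymphocytes, was measured at 57.0, 56.5 and 63.4 CPM in A431CT and 71.8, 60.7 and 65.8 CPM in Dsg2KO libraries. The second Dsg2KO library lay below the third A431CT library, so the groups overlap. REL had a log2 fold change of 0.16 (SE 0.07, 95% interval 0.02 to 0.31, adjusted p = 0.0824). The gene passed in 4 of 13 alternatives, among them without the third A431CT library (log2 fold change 0.22, adjusted p = 0.0356) and without the second Dsg2KO library (0.22, adjusted p = 0.0310). Over all 13 the adjusted p was 0.0310 to 0.334. In GENCODE, a long noncoding RNA not analysed here overlaps REL on the same strand over 5702 bp. How reads in that overlap were assigned is not stated, so the REL value is uncertain.

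RELB, the subunit that pairs with p52 in the non-canonical pathway, was among the low members with 109 to 194 counts a library. It stood at 8.57, 10.7 and 11.5 CPM in A431CT and 13.0, 11.1 and 11.5 CPM in Dsg2KO libraries. The first library of each group was its extreme, the lowest of A431CT and the highest of Dsg2KO. On the log2 scale the fold change was 0.21 (SE 0.13, 95% interval -0.07 to 0.49, adjusted p = 0.261), an interval that holds 0 and reaches close to 0.5. Without the first A431CT library it was 0.10 (adjusted p = 0.653) and without the third 0.30 (adjusted p = 0.152). Without the first Dsg2KO library it was 0.14 (adjusted p = 0.549), and RELB passed in none of the 13 alternatives.

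NFKB1, which encodes the p105 precursor of p50, was at 55.1, 61.2 and 62.4 CPM in A431CT and 58.2, 59.5 and 59.0 CPM in Dsg2KO libraries. All 3 Dsg2KO values fell inside the A431CT range. NFKB2, which encodes the p100 precursor of p52, was at 47.8, 54.2 and 56.1 CPM in A431CT and 51.8, 49.4 and 54.6 CPM in Dsg2KO libraries, again inside the A431CT range. The log2 fold changes were -0.02 (95% interval -0.14 to 0.11, adjusted p = 0.870) for NFKB1 and -0.02 (95% interval -0.16 to 0.12, adjusted p = 0.849) for NFKB2. For both precursors and for RELA, the intervals exclude a log2 change of 0.5 in either direction.

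NFKBIA, which encodes IκBα, the inhibitor that retains RELA dimers in the cytoplasm and is rapidly resynthesized after activation, fell in Dsg2KO cells. The A431CT libraries held 1098, 1117 and 1158 counts and the Dsg2KO libraries 1142, 1189 and 1190, from deeper sequencing. Scaled to depth, this was 86.4, 82.4 and 89.8 CPM in A431CT and 76.6, 72.7 and 73.6 CPM in Dsg2KO libraries. Every Dsg2KO library lay below every A431CT library, a separation in this direction that 21.4% of all tested genes had. The mean was 86.2 ± 3.71 CPM (SD, n = 3) against 74.3 ± 2.05 CPM (SD, n = 3), which left 86.2% of the A431CT level. The log2 fold change was -0.21 (SE 0.05, 95% interval -0.32 to -0.11, adjusted p = 0.00456). It passed in all 13 alternatives, with log2 fold changes of -0.25 to -0.18 and adjusted p of 6.16e-04 to 0.0247.

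NFKBIE encodes IκBε, a second cytoplasmic inhibitor. It was at 46.8, 49.3 and 51.9 CPM in A431CT and 57.3, 51.9 and 50.8 CPM in Dsg2KO libraries, with overlap. NFKBIE had a log2 fold change of 0.11 (SE 0.06, 95% interval -0.03 to 0.25, adjusted p = 0.219). Its interval does not overlap with that of NFKBIA, so the estimates for these IκB genes lay apart in the same fit, although their difference was not itself tested there.

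BCL3, which encodes an atypical, mainly nuclear IκB protein that binds p50 and p52 homodimers, rose in Dsg2KO cells. The libraries held 123, 165 and 144 counts in A431CT and 231, 227 and 258 in Dsg2KO cells. This was 9.67, 12.2 and 11.2 CPM in A431CT and 15.5, 13.9 and 15.9 CPM in Dsg2KO libraries. Every Dsg2KO library lay above every A431CT library, a separation in this direction that 21.2% of all tested genes had. The mean was 11.001 ± 1.25 CPM (SD, n = 3) against 15.1 ± 1.09 CPM (SD, n = 3). The log2 fold change was 0.46 (SE 0.12, 95% interval 0.21 to 0.70, adjusted p = 0.0083), a fold of 1.37, and its size exceeded that of 89.2% of tested genes. It passed the adjusted p in all 13 alternatives, with log2 fold changes of 0.37 to 0.54 and adjusted p of 0.00206 to 0.0424. It reached the fold change minimum of 0.5 without the second A431CT library (0.54) or without the second Dsg2KO library (0.52).

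NFKBIZ, which encodes IκBζ, the other atypical nuclear IκB here and a coactivator of secondary response genes, was at 43.3, 49.5 and 42.3 CPM in A431CT and 52.7, 42.0 and 46.9 CPM in Dsg2KO libraries. The groups overlap, and the variation between Dsg2KO libraries was 11.3% where counting error gives 3.67%. NFKBIZ had a log2 fold change of 0.06 (SE 0.08, 95% interval -0.11 to 0.24, adjusted p = 0.613). In GENCODE, NFKBIZ overlaps NXPE3 on the same strand over 15753 bp, and NXPE3 held 1309 to 1413 counts a library. How reads in the overlap were assigned is not stated, so the NFKBIZ value is uncertain.

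TNFAIP3 encodes A20, a ubiquitin-editing enzyme that ends signaling upstream of the IKK complex. It was at 16.8, 13.9 and 16.7 CPM in A431CT and 13.9, 11.9 and 13.9 CPM in Dsg2KO libraries. The second library was the lowest in each group, and the highest Dsg2KO value just exceeded the lowest A431CT value. The log2 fold change was -0.26 (SE 0.11, 95% interval -0.50 to -0.01, adjusted p = 0.105). Without the second A431CT library it was -0.34 with an adjusted p of 0.0419, and over the 13 alternatives the adjusted p was 0.0419 to 0.308. WAKMAR2, an antisense RNA not analysed here, overlaps TNFAIP3 over 1020 bp, and without a stated strand setting its reads cannot be told apart from those of TNFAIP3.

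**Figure D2:**
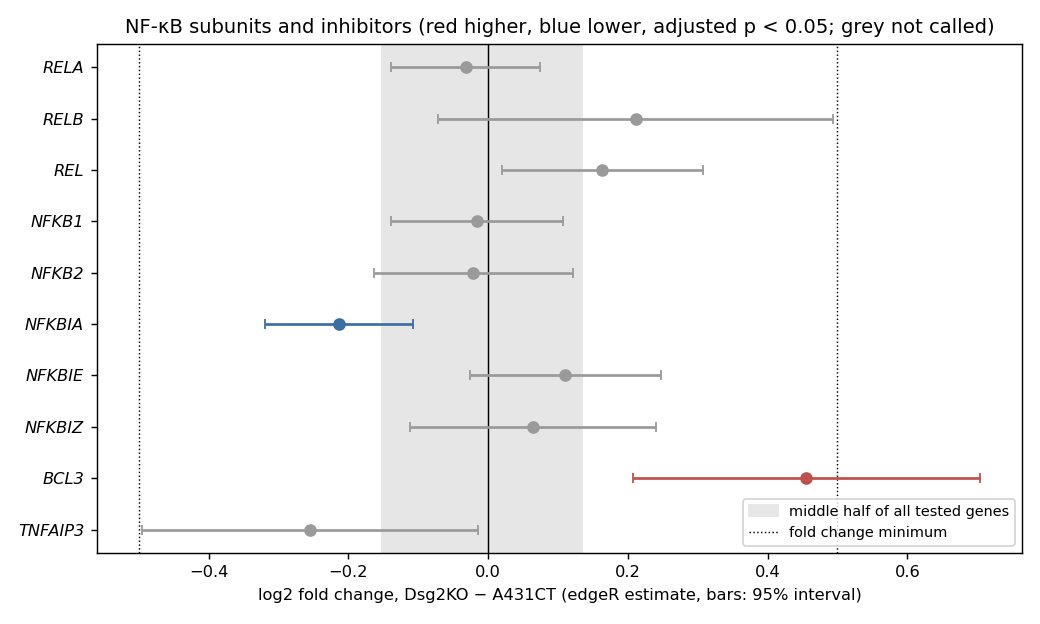
Log2 fold change of each gene, Dsg2KO minus A431CT (horizontal axis, edgeR estimate), with 95% intervals as bars. The interval of BCL3 lies above 0 and that of NFKBIA below 0 with adjusted p under 0.05, and the grey band holds the middle 50% of all tested genes.

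Measured per kb of the Ensembl canonical transcript, the order of the 10 mRNAs by level was the same in both groups. On this scale NFKBIA led with 55.3 CPM per kb in A431CT and 47.7 in Dsg2KO cells, followed by RELA (28.9 and 28.2), NFKBIE (21.0 and 22.7) and NFKB2 (17.5 and 17.2). NFKB1 (14.7 and 14.5) and NFKBIZ (11.5 and 12.0) came next. The 4 lowest were BCL3 (5.86 and 8.05), REL (5.31 and 5.95), RELB (4.54 and 5.26) and TNFAIP3 (3.39 and 2.84 CPM per kb). The IκBα mRNA was thus the most abundant of the set and the A20 mRNA the least, and this held on both lengths used. Among neighbours in this order, the library ranges overlapped for BCL3 and REL in A431CT cells and for REL and RELB in Dsg2KO cells, and were apart for all other neighbours. Per kb of the union of all annotated exons, NFKBIE stood above RELA in both groups, and the order differed between the groups. On that scale NFKB1 had rank 6 in A431CT and 9 in Dsg2KO cells, BCL3 rank 7 and 6, and RELB rank 9 and 7.

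Ratios of counts within a library do not depend on the scaling of libraries, and 7 of them were formed among the 10 genes, with the fold changes already known. They are therefore descriptions and were not tested. All 7 were apart between the groups, but no such share was computed for other gene pairs. Of single genes, 42.6% of all tested and 2 of the 10 were apart.

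Per 100 counts of RELA, NFKBIA had 115, 118 and 123 counts in A431CT and 105, 105 and 104 counts in Dsg2KO libraries. The mean ratio went from 119 ± 4.01 to 105 ± 0.538 (SD, n = 3 each), with the Dsg2KO libraries close together. Per 100 counts of RELA, NFKBIE went the other way, from 68.0 ± 4.95 to 75.03 ± 3.37 (SD, n = 3 each). The highest A431CT value of that ratio, 71.0, lay just under the lowest Dsg2KO value, 71.8. TNFAIP3 per 100 counts of RELA was 21.7 ± 1.64 in A431CT and 18.6 ± 1.27 in Dsg2KO cells (SD, n = 3 each).

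The IκB genes BCL3 and NFKBIA moved in opposite directions, and the ratio between them restates these changes within each library. BCL3 had 11.2, 14.8 and 12.4 counts per 100 counts of NFKBIA in A431CT libraries and 20.2, 19.1 and 21.7 in Dsg2KO libraries, a log2 difference of 0.67. Per 100 counts of NFKB1, whose p50 product BCL3 binds, BCL3 had 18.4 ± 1.25 counts in A431CT and 25.7 ± 2.03 in Dsg2KO cells (SD, n = 3 each). NFKBIA per 100 counts of NFKB1 was 145 ± 11.2 in A431CT and 126 ± 4.95 in Dsg2KO cells (SD, n = 3 each). NFKB2 per 100 counts of RELB, the pair of the non-canonical dimer, was 518 ± 35.9 in A431CT and 439 ± 38.6 in Dsg2KO cells (SD, n = 3 each).

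**Figure D3:**
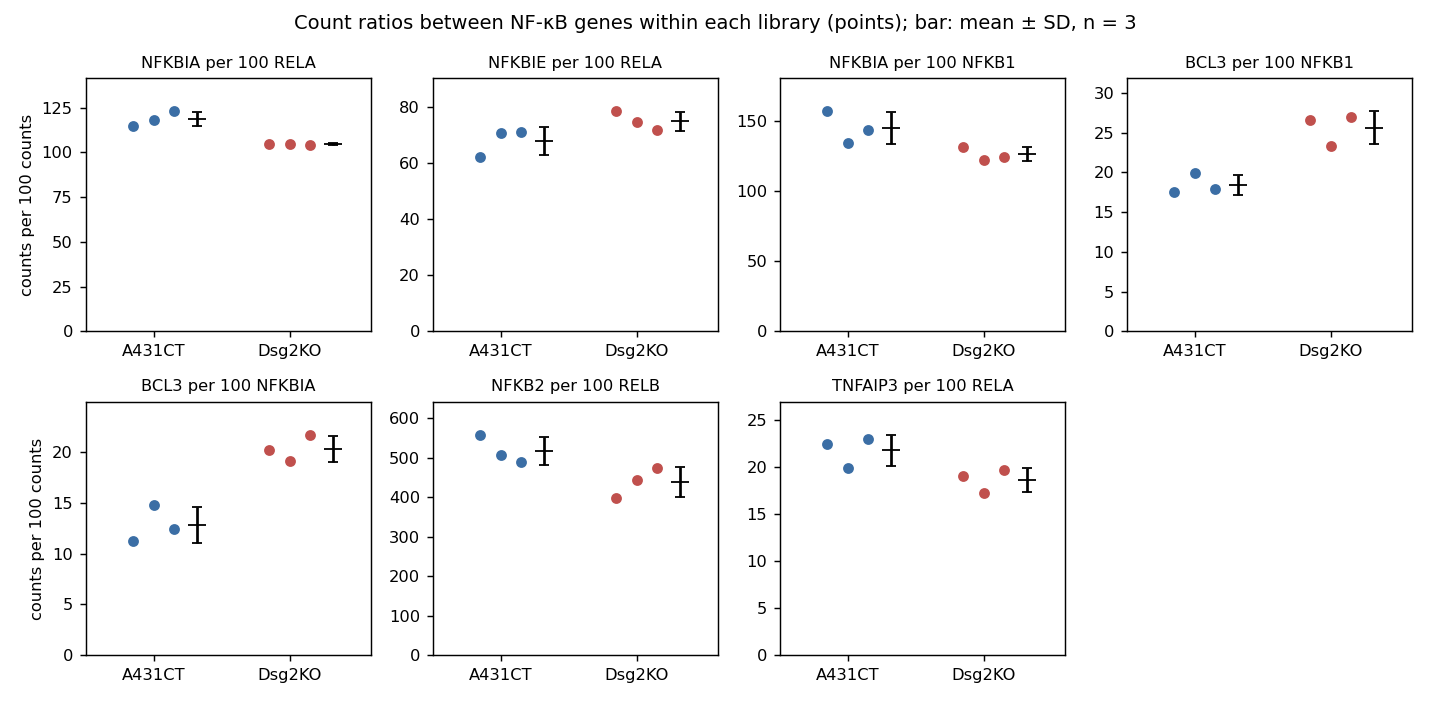
Counts of an inhibitor or subunit per 100 counts of another NF-κB gene in the same library (vertical axes, each from 0), for 3 A431CT and 3 Dsg2KO libraries. Points are libraries and bars are mean ± SD; NFKBIA per RELA lies at 115 to 123 in A431CT and 104 to 105 in Dsg2KO cells, and BCL3 per NFKBIA at 11.2 to 14.8 and 19.1 to 21.7.

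On the genome the 10 genes lie on 8 chromosomes, and genes that neighbour each other can shift together. For each gene the 50 nearest tested genes, 25 on each side, were therefore read beside it. BCL3 (chromosome 19, 44747705 to 44760044, plus strand) had neighbours with a median log2 fold change of 0.085, which left a difference of 0.37. This median lay above the 90th percentile of neighbour medians over all placed genes (0.079), and 5 of the 50 neighbours had a log2 fold change at or above that of BCL3. RELB lies 254 kb further along the same chromosome, and its neighbours had a median of 0.02. NFKBIA (chromosome 14, 35401079 to 35404749, minus strand) had neighbours with a median of 0.02, which left a difference of -0.23, and 5 of its 50 neighbours had a log2 fold change at or below its own. The part of neighbouring genes in either change was not tested.

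TNFAIP3 differed from BCL3 and NFKBIA in this respect. It lies on chromosome 6 (137867214 to 137883314, plus strand), where the median of its neighbours was -0.176 and 14% of them had a positive log2 fold change. This median did not lie below the 10th percentile of neighbour medians over all placed genes (-0.184). The gene's own -0.26 was within 0.08 of that median, and 20 of the 50 neighbours were at or below it. Copy number was not measured here, and its part in the TNFAIP3 value was not tested. The neighbour medians of the other 7 genes were between -0.03 and 0.05.

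**Figure D4:**
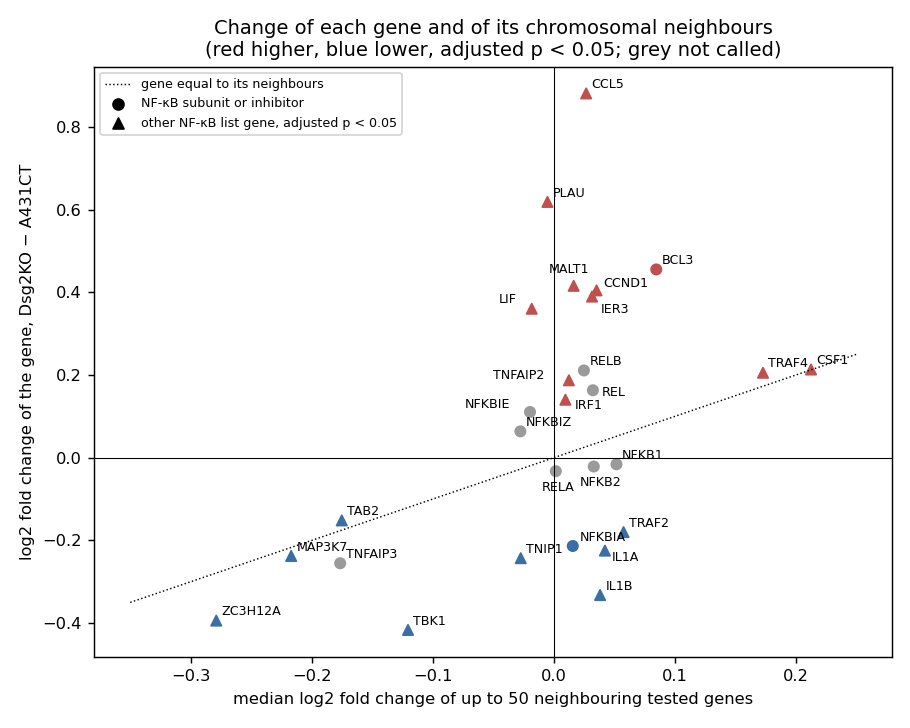
Log2 fold change of each gene (vertical axis) against the median log2 fold change of up to 50 neighbouring tested genes (horizontal axis), both Dsg2KO minus A431CT. Circles are the NF-κB subunits and inhibitors and triangles other NF-κB pathway genes with adjusted p under 0.05. BCL3 and NFKBIA lie far from the dotted line of equality. TNFAIP3, MAP3K7 and TAB2, all on chromosome 6, lie close to it, as do CSF1, TRAF4, RELA, NFKB1 and NFKB2.

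The patterns most like those of the changed genes over the 6 libraries were found by Pearson's r of log2 CPM, as a description. USP1 (r = 0.996) and TM4SF19-TCTEX1D2 (r = 0.995) were most like NFKBIA, with 237 genes above 0.95. KIAA0040 (r = 0.999) and DOCK11 (r = 0.996) were most like BCL3, with 150 genes above 0.95. With 3 libraries in each of 2 groups, any gene with a similar group difference scores high.

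The other genes of the pathway were read from 6 lists by role, of which 78 genes were in the table and 64 were tested. In all, 10 of the 64 rose and 8 fell, which is 28.1% against the background of 29.6%. Leaving out the target genes, 2 of 46 rose and 6 fell, with a median log2 fold change of -0.02. That is 17.4% called, where 29.6% of all genes passed, 14.3% higher and 15.3% lower. The kinases (28.6%), receptor adaptors (15.8%) and other negative regulators (21.4%) described below also had no larger share called than all genes.

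None of the 3 other IκB genes passed in edgeR's quasi-likelihood test or DESeq2, while 1 had an unadjusted p under 0.05 and passed the likelihood ratio test. This was NFKBIB, which encodes IκBβ, at 63.1, 63.2 and 68.1 CPM in A431CT and 60.4, 59.8 and 51.5 CPM in Dsg2KO libraries. Its log2 fold change was -0.18 (SE 0.07, adjusted p = 0.0507). The log2 fold changes of NFKBID and NFKBIL1 were 0.11 and 0.03.

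Of the 7 IKK and upstream kinases, 0 rose and 2 fell. TBK1, an IKK-related kinase of innate immune signaling, was at 32.6, 29.6 and 30.5 CPM in A431CT and 21.5, 24.5 and 23.3 CPM in Dsg2KO libraries. Its log2 fold change was -0.42 (SE 0.08, adjusted p = 8.34e-04), where its neighbours on chromosome 12 had a median of -0.12. MAP3K7, which encodes TAK1, the kinase that activates IKK, had a log2 fold change of -0.24 (adjusted p = 0.00277) beside neighbours at -0.22. The catalytic IKK subunits CHUK and IKBKB did not pass, with log2 fold changes of 0.14 (adjusted p = 0.081) and 0.13 (adjusted p = 0.229).

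Of 19 receptor adaptors tested, 1 rose and 2 fell. MALT1, the protease of the CARD-BCL10-MALT1 complex that can cleave A20, rose from 32.6, 33.0 and 30.9 CPM in A431CT to 43.0, 40.2 and 45.6 CPM in Dsg2KO libraries. Its log2 fold change was 0.42 (SE 0.07, adjusted p = 3.15e-04), with neighbours at a median of 0.02. TAB2, a TAK1-binding adaptor, had a log2 fold change of -0.15 (adjusted p = 0.0197) beside neighbours at -0.18, and did not pass without the first A431CT library (adjusted p = 0.0935) or the second Dsg2KO library (adjusted p = 0.0849). TRAF2, an adaptor of TNF receptors, had a log2 fold change of -0.18 (adjusted p = 0.0482) and passed in 3 of 13 alternatives, with adjusted p of 0.0284 to 0.198. The other extremes of this list did not pass, TRAF5 with a log2 fold change of 0.27 (adjusted p = 0.0638) and BIRC3, which encodes cIAP2, with -0.19 (adjusted p = 0.273).

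None of the 3 genes of the linear ubiquitin ligase passed in edgeR's quasi-likelihood test as described or in DESeq2, and 1 had an unadjusted p under 0.05. This was RNF31, the catalytic subunit, at 13.1, 15.9 and 17.0 CPM in A431CT and 6.84, 15.4 and 7.17 CPM in Dsg2KO libraries. The second Dsg2KO library stood with the A431CT libraries. The log2 fold change was -0.64 (SE 0.23, adjusted p = 0.0505), and it depends on single libraries. Without the second Dsg2KO library it was -1.12 (adjusted p = 1.89e-04), without the first -0.44 (adjusted p = 0.204) and without the third -0.45 (adjusted p = 0.195). It passed in 5 of 13 alternatives, the others being a filter of at least 1 count in any library (adjusted p = 0.00272) or at least 10 in every library (0.0348), the likelihood ratio test (0.0284) and the replicate block (0.0124). DESeq2 gave an adjusted p of 0.257. RBCK1 and SHARPIN, the other subunits, had log2 fold changes of -0.03 and -0.04.

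Of 14 other negative regulators tested, 1 rose and 2 fell. ZC3H12A, which encodes the RNase Regnase-1, had a log2 fold change of -0.39 (SE 0.07, adjusted p = 6.60e-04), where its neighbours on chromosome 1 had a median of -0.28. TNIP1, an A20-binding inhibitor, had a log2 fold change of -0.24 (adjusted p = 0.0192) with overlapping groups. Its adjusted p was 0.0557 to 0.0964 in the 4 leave-one-out fits in which it did not pass, without the first or second A431CT library or the first or the third Dsg2KO library. TRAF4 had a log2 fold change of 0.21 (SE 0.04, adjusted p = 0.00181) beside neighbours at 0.17. PDLIM2, a ubiquitin ligase for RELA, had a log2 fold change of 0.20 and did not pass (adjusted p = 0.0944). TNIP3 was at 0 counts in every library.

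The NF-κB target genes had the highest share called of the 6 lists. Of 18 tested, 8 rose and 2 fell, a share of 55.6% where 29.6% of all genes passed, 14.3% higher and 15.3% lower. The list median was 0.14 on the log2 scale, and 13 others had too few counts to be tested. The list was written with earlier results of these data known, so its share is not independent evidence. It does not hold the 10 NF-κB genes, although several inhibitors among them are transcribed by NF-κB. Of those 10, 1 rose and 1 fell, with a median log2 fold change of 0.02. CCL5, a chemokine, was at 2.99, 2.14 and 2.17 CPM in A431CT and 5.17, 4.83 and 3.46 CPM in Dsg2KO libraries, with a log2 fold change of 0.88 (SE 0.25, adjusted p = 0.0137). Without the first or the second Dsg2KO library, CCL5 did not pass (adjusted p of 0.0702 and 0.0537). PLAU, the urokinase plasminogen activator, was at 91.6, 97.3 and 93.6 CPM in A431CT and 140, 150 and 144 CPM in Dsg2KO libraries, with a log2 fold change of 0.62 (SE 0.04, adjusted p = 1.54e-07).

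The other targets that rose were CCND1 (0.40), which encodes cyclin D1, the survival gene IER3 (0.39), the cytokines LIF (0.36) and CSF1 (0.21), TNFAIP2 (0.19) and the transcription factor IRF1 (0.14), given as log2 fold changes. IRF1 passed in 8 of 13 alternatives, with adjusted p of 0.0168 to 0.137, and not without the first or the third A431CT library or the second or the third Dsg2KO library, nor in DESeq2 (adjusted p = 0.0606). CSF1 lies among neighbours with a median of 0.21. The interleukin-1 genes fell, IL1B by 0.33 and IL1A by 0.22 on the log2 scale (adjusted p = 0.0124 and 0.0147). Neither passed without the second A431CT library (adjusted p = 0.0515 for IL1B and 0.0801 for IL1A, whose log2 fold change was then -0.15). IL1B also did not pass without the third Dsg2KO library (adjusted p = 0.0600), nor IL1A without the second (adjusted p = 0.0582). CXCL2, a neutrophil chemokine near the detection limit, had a log2 fold change of -0.60 (SE 0.40, adjusted p = 0.293).

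**Figure D5:**
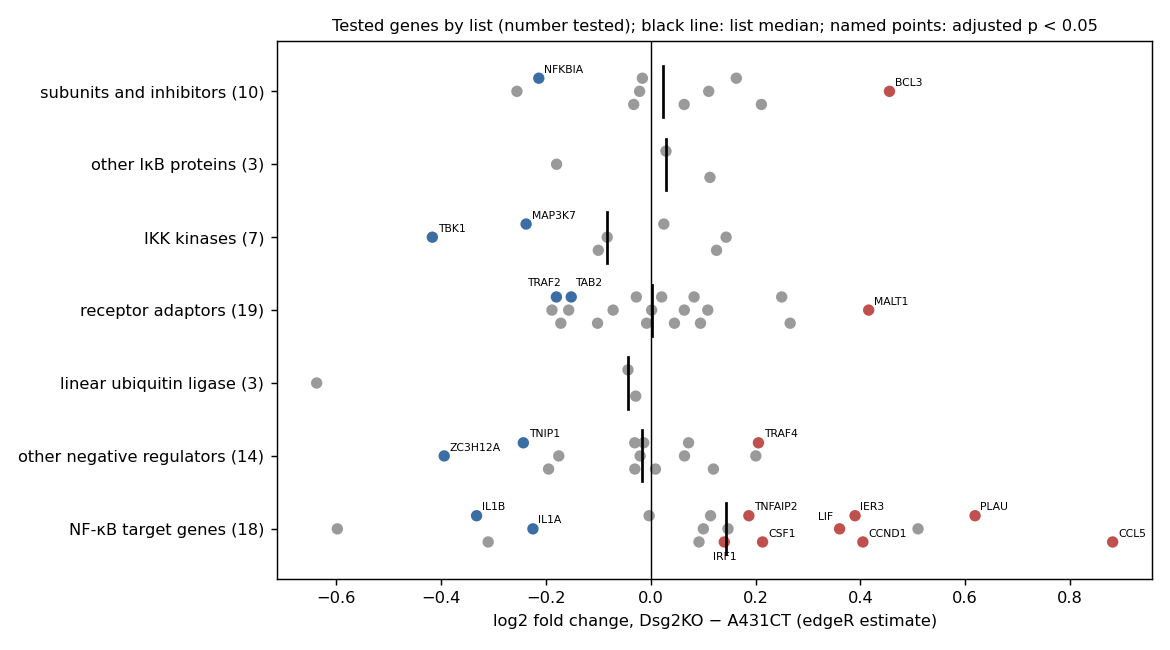
Log2 fold change of each tested gene (horizontal axis, Dsg2KO minus A431CT) by list, with the number tested in parentheses and the list median as a black line. Named points have adjusted p under 0.05; the target genes have a median of 0.14, and the medians of the other lists lie between -0.08 and 0.03.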

How the data were processed

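Libraries were prepared from polyA RNA with a NEBNext Ultra kit. CLC Genomics Workbench was used by the authors for read trimming, alignment of the read pairs to GRCh38 and quantification, and raw counts for each gene symbol were deposited with no normalization applied. The annotation and strand setting of the counting are not given in the sources used here. The study describes the 3 libraries of each group as biological replicates, and the labels name no separate cultures, so p-values measure the spread between these libraries. Replicates differed by more than counting error (chi-square per degree of freedom of 2.64 to 4.14).

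Counts were filtered with filterByExpr (minimum count 10, minimum total 15) and tested with the quasi-likelihood F test of edgeR 4.0.16 in R 4.3.3, with TMM factors (0.990 to 1.01), no covariate and Benjamini-Hochberg adjustment over 12857 genes. A gene rose or fell with an adjusted p under 0.05. CPM values used TMM-scaled totals, and log2 CPM a prior count of 2. The biological coefficient of variation was 4.79%. The 13 alternatives were DESeq2 1.42.0, the edgeR likelihood ratio test, RLE size factors in place of TMM, scaling by total counts and a replicate block. The others were a filter of at least 1 count in any library or at least 10 in every library, and leaving out each library.

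Genes were placed with GENCODE 44 by symbol (12237 of 12857). Same-numbered libraries of the groups did not deviate together (residual correlations -0.003, 0.014 and 0.054), so no pairs were formed. The 10 genes and the pathway lists were chosen with earlier results of these data known, and the lists were written from general knowledge. Named are the 10 genes, DSG2, list genes past the adjusted p, the 2 highest and 2 lowest of each list, and the 2 genes most like each changed gene. Gene groups, neighbours and count ratios were described by counts, medians and means, with no test. NXPE3 and the cell type markers were added where a result touches them. IRAK4 and SOD2, on the lists, were not analysed here.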

Additional observations from a re-analysis of the deposited data

How the results depend on the processing

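Of the 10 NF-κB genes, 2 to 3 passed the adjusted p in all alternatives, and NFKBIA and BCL3 were among them in each. The third was REL with a filter of at least 1 count in any library (adjusted p = 0.0376), with scaling by total counts (0.0490) or without the third A431CT or the second Dsg2KO library, and TNFAIP3 without the second A431CT library. The number past both thresholds was 0, and 0 to 1 when each library was left out. Over all genes, 775 passed both thresholds and 250 with a fold change minimum of 1 on the log2 scale. With the replicate block, 2 of the 10 genes, 19 list genes, 3975 genes by adjusted p and 769 genes by both thresholds passed; no call of the 10 changed. Across alternatives 2891 to 4077 genes passed the adjusted p. The share of these that were higher was 48.3%, and 55.9% when scaled by total counts. DESeq2 gave no adjusted p for 499 genes. The log2 fold changes of NFKB1 (-0.07 to 0.02), NFKB2 (-0.09 to 0.02) and NFKBIZ (-0.02 to 0.14), none of them called, took either sign across alternatives. Leaving out a library leaves 2 against 3. At these depths RELB, BCL3 and TNFAIP3, with 109 to 258 counts a library, are the least precisely counted of the 10.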
